A study of Mus musculus with 10 samples.

Results

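The genes described here encode the class V myosins (Myo5b, Myo5a and Myo5c), the Rab11 subfamily of small GTPases (Rab11a, Rab11b and Rab25), the Rab8 subfamily (Rab8a and Rab8b) and a pair of Rab11 adaptors (Rab11fip1 and Rab11fip2). They were picked by name from the expression table, which holds 1 row for each of these 10 genes among 35275 genes in all. All 10 averaged 0.1 FPKM or more over the libraries and entered the tests. FPKM is the number of fragments on a gene per kilobase of its length and scaled to all fragments counted on genes, so levels can be compared between genes.

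MYO5B is a motor protein that walks along actin filaments and carries recycling vesicles towards the apical brush border of enterocytes. Its tail binds Rab11 and Rab8 GTPases, which sit on the vesicle while they hold GTP, and Rab11 adaptors of the FIP family join motor and vesicle. Inherited loss of MYO5B causes microvillus inclusion disease, a diarrhoea of infants in which apical transporters are held inside the cell.

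The question put to these genes was how their transcripts stood after loss of MYO5B from the gut epithelium, and whether lysophosphatidic acid (LPA), a signalling lipid, moved them. RNA came from jejunal epithelial cells of 10 adult C57BL/6 mice labelled male, all of the genotype VillinCreERT2;MYO5Bflox/flox. The 3 control mice (numbers 2, 4 and 5) received corn oil without tamoxifen. The 4 MYO5B-knockout mice (3, 5, 6 and 7) received 2 mg of tamoxifen and vehicle, and 3 LPA-treated MYO5B-knockout mice (1, 4 and 5) received the same tamoxifen dose and LPA at 3 mg/kg. All mice were sampled on day 4. The titles of the LPA-treated libraries begin with ipL, which was read as intraperitoneal LPA. The paper describes daily LPA, given by gavage or by intraperitoneal injection. The villin promoter restricts the recombinase to epithelium, and the control mice carry it too. Tamoxifen and the loss of MYO5B cannot be told apart in a comparison with control mice. The description of LPA-treated mouse 1 names vehicle in 1 line and LPA in the next, and its title was followed.

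Between 10949420 and 24470409 reads lay on genes in each library. A pair of libraries stood apart, with a read on 12242 genes (control mouse 2) and 12601 genes (MYO5B-knockout mouse 3) against 17309 to 18267 in the other 8, and with 17.4% and 18.0% of reads on mitochondrial genes against 1.98% to 3.50%. They are called the gene-poor libraries here, and results are given with all 10 libraries and with the 8 others. Against the male label, Xist was present and 4 Y-linked genes had no reads in a pair of libraries, mouse 3 of the MYO5B-knockout group and mouse 1 of the LPA group. The median gene stood 0.29 higher in MYO5B-knockout than in control libraries on the log2 scale, and 0.41 higher after LPA. Median of ratios scaling, which sets libraries to a shared level, left medians of 0.039 and 0.10. Single changes near those sizes are not distinct from that general shift.

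The epithelial marker list, which includes Epcam, Cdh1 and Vil1, summed to 5991 to 7389 FPKM in control mice, 7158 to 9933 FPKM in MYO5B-knockout mice and 8527 to 10610 FPKM after LPA, so the LPA-treated libraries all lay above control. Its members did not move together. Krt8 averaged 2639, 3794 and 4175 FPKM in these groups, Epcam 897, 807 and 912 FPKM, and Vil1 656, 433 and 305 FPKM. In MYO5B-knockout mice 3 of its 7 genes had a log2 difference from control below 0. Of the 7 epithelial markers, 1 was called between LPA-treated and control mice, where 2.32% of all genes were called. The 13 leukocyte markers summed to 310 to 435 FPKM in control mice, 15.4 to 129 FPKM in MYO5B-knockout mice and 26.5 to 46.0 FPKM after LPA. Gzma alone held 226 to 331 FPKM, 7.20 to 91.4 FPKM and 18.4 to 27.8 FPKM of these sums. Of the 13, 9 were lower in MYO5B-knockout mice. The means of Itgam and Cd68 were 1.09 and 0.461 FPKM in control and 1.87 and 0.652 FPKM in MYO5B-knockout mice. In each comparison with control 2 of the 13 were called, beside 2.01% and 2.32% of all genes. None of the 13 was at 0 in all libraries. The 8 enterocyte markers summed to 30901 to 40729 FPKM in control mice and 14398 to 26346 FPKM in MYO5B-knockout mice, and to 22404 to 43326 FPKM after LPA. Apoa1 and Fabp1 held much of these sums, with means of 12460 and 9717 FPKM in control mice. Of the 8, 6 had a log2 difference from control below 0 in MYO5B-knockout mice. Alpi and Apoa4 went the other way, from means of 359 and 1616 FPKM in control to 783 and 1870 FPKM in MYO5B-knockout mice. Between LPA-treated and control mice 1 of these 8 was called, beside the 2.32% of all genes. The 3 proliferation markers summed to 36.4 to 76.2 FPKM in control mice, 108 to 188 FPKM in MYO5B-knockout mice and 105 to 125 FPKM after LPA. The 3 tuft cell markers summed to 5.14 to 6.69 FPKM in control mice, 1.56 to 3.88 FPKM in MYO5B-knockout mice and 2.65 to 3.96 FPKM after LPA. The ranges of control and MYO5B-knockout mice overlapped for goblet, enteroendocrine, smooth muscle, stromal and neuronal lists. After LPA the neuronal and glial list summed to 1.03, 12.9 and 14.5 FPKM in mice 1, 4 and 5, against at most 4.45 FPKM in any other library, and the stromal list to 1.43, 6.86 and 7.11 FPKM, against at most 4.63 FPKM. The goblet list reached 3476 to 5923 FPKM there, against 1806 to 3426 FPKM in MYO5B-knockout mice. Tff3 alone held 3059 to 5303 FPKM and 1603 to 2998 FPKM of these sums, and Muc2 and Clca1 overlapped between the 2 groups. The enteroendocrine list ran from 90.0 to 153 FPKM and the smooth muscle list from 3.85 to 8.10 FPKM after LPA, and both overlapped with the other groups. In bulk RNA, fewer cells of a type and less RNA per cell cannot be told apart, and the part that these markers play in the values below was not tested.

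Between MYO5B-knockout and control mice, the means of Myo5b, Rab8a and Rab8b were 0.497, 0.722 and 0.669 times those of control. The means of Rab11a, Rab11fip1 and Myo5c were 1.45, 1.38 and 2.56 times control, and that of Rab11b was 1.01 times. In LPA-treated knockout mice, set against the same control libraries, these means were 0.448, 0.682 and 0.714 times control for Myo5b, Rab8a and Rab8b and 1.72, 1.39 and 2.49 times for Rab11a, Rab11fip1 and Myo5c. None of the 10 passed limma's adjusted p of 0.05 between MYO5B-knockout and control mice, a comparison in which 2.01% of all 15729 genes tested were called. None passed between LPA-treated MYO5B-knockout and control mice either, where 2.32% of all genes were called. Between LPA-treated and vehicle-treated MYO5B-knockout mice limma called 0% of all genes, with 459 genes at an unadjusted p under 0.05, and none of the 10 was among those 459. There edgeR called 0 genes and DESeq2 called 7, none of them among the 10. At an unadjusted p under 0.05, limma found 2 of the 10 between MYO5B-knockout and control mice, Myo5b and Myo5c, where 17.6% of all genes tested reached that level, and 4 of the 10 between LPA-treated and control mice, Myo5b, Rab11a, Rab8a and Myo5c, against 16.4%. The median log2 fold changes of the 10 were 0.37 and 0.53 in these comparisons, beside 0.29 and 0.41 over all genes. The groups did not overlap for 5 of the 10 genes between MYO5B-knockout and control mice (Myo5b and Rab8a lower, Rab11a, Rab11fip1 and Myo5a higher), where 17.2% of all genes did not overlap. They did not overlap for 7 of the 10 between LPA-treated and control mice (Myo5b, Rab8a and Rab8b lower, Rab11a, Rab11fip1, Myo5c and Rab11fip2 higher), against 26.9% of all genes, and for none between LPA-treated and vehicle-treated mice, against 4.16%. Myo5a and Rab11fip2 averaged 0.0686 and 0.0657 FPKM in control mice, under the 0.1 FPKM filter. They met it only through the knockout groups, so the filter favoured higher values there. Their non-overlap is a description and no support for a rise. Both comparisons with control use the same 3 control libraries, so they are not independent.

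**Figure D1:**
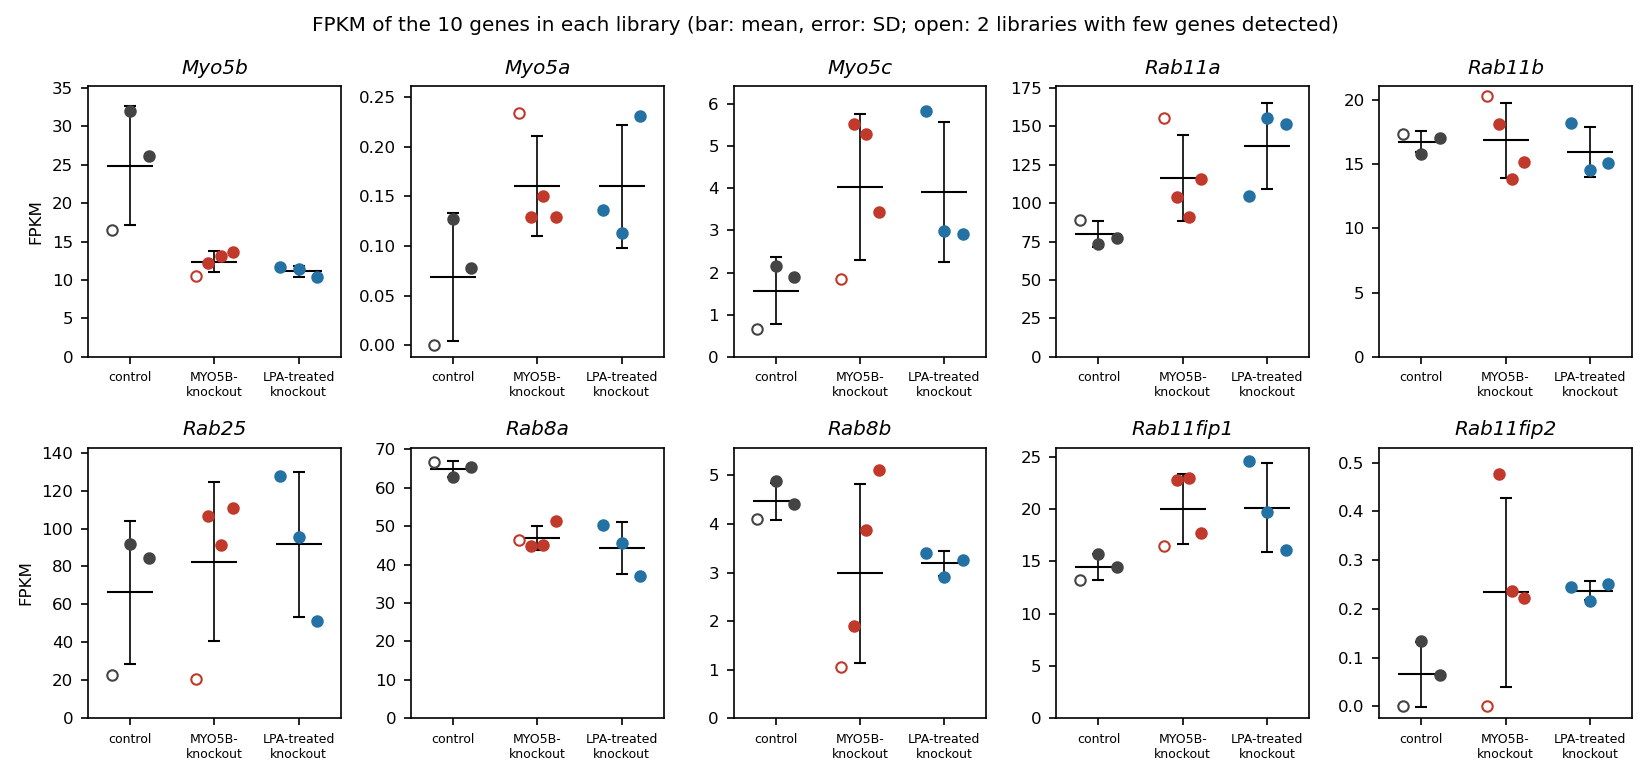
FPKM of each gene (vertical axis, own scale for each panel) in the 3 control, 4 MYO5B-knockout and 3 LPA-treated MYO5B-knockout libraries, with the mean and SD of each group. Open symbols are the gene-poor libraries (control 2, MYO5B-knockout 3). All 7 knockout libraries of Myo5b lie at or below 13.6 FPKM, under the lowest control library at 16.5 FPKM, and for Rab8a they lie at or below 51.4 FPKM, under the lowest control library at 62.7 FPKM.

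Myo5b (ENSMUSG00000025885, GRCm38 chromosome 18, 74440936 to 74771493, plus strand), the gene that carries the floxed alleles, was the leading class V myosin in every library. Control mice 2, 4 and 5 held it at 16.5, 32.0 and 26.1 FPKM. Mice 3, 5, 6 and 7 of the MYO5B-knockout group held 10.5, 12.2, 13.1 and 13.6 FPKM. LPA-treated mice 1, 4 and 5 held 11.7, 11.4 and 10.3 FPKM. Every knockout library lay below every control library, while the vehicle and LPA libraries overlapped. The lowest control value came from mouse 2, a gene-poor library. The mean of MYO5B-knockout mice was 0.497 times that of control mice, and that of LPA-treated mice 0.448 times. Gene-level values take in exons outside the deleted stretch, so they do not show how much of this RNA lacks the floxed exon.

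On the scale of log2(FPKM + 0.1), Myo5b differed by -0.96 between MYO5B-knockout and control mice (95% confidence interval -1.59 to -0.33, limma's adjusted p = 0.115) and by -1.10 between LPA-treated and control mice (limma's adjusted p = 0.0939). With 1 mouse left out at a time in this limma fit, Myo5b passed only without control mouse 2. Without that library the differences were -1.22 and -1.37, at which limma's adjusted p was 0.0482 and 0.0329. Without both gene-poor libraries they were -1.15 and -1.37, with limma's adjusted p-values of 0.0185 and 0.00651, in fits that called 4.95% and 8.56% of all genes. Myo5b also passed in both comparisons under other scalings and count tests. After scaling by the median of ratios the differences were -1.25 and -1.47, with 3.8% and 3.12% of all genes called, and after quantile normalization they were -1.17 and -1.36, with 5.11% and 3.98% called. On the recovered reads edgeR gave -1.22 and -1.45, with 2.82% and 2.4% of all genes called, and DESeq2 gave -1.24 and -1.48, with 11.6% and 9.47% called. In all, Myo5b passed in 6 of 21 alternatives for MYO5B-knockout mice and 6 of 22 for LPA-treated mice, and it stayed lower in every one. LPA-treated and vehicle-treated mice differed by -0.15 (95% confidence interval -0.77 to 0.48).

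Myo5c (ENSMUSG00000033590, chromosome 9, 75232014 to 75305451, plus strand), the class V myosin of glandular and other secretory epithelia, came to 0.672, 2.15 and 1.89 FPKM for control mice 2, 4 and 5. In the MYO5B-knockout group, mice 3, 5, 6 and 7 held 1.86, 5.54, 5.29 and 3.44 FPKM, and LPA-treated mice 1, 4 and 5 held 5.83, 3.00 and 2.91 FPKM. Within each of the control and MYO5B-knockout groups, the gene-poor library was the lowest. MYO5B-knockout mouse 3 reached into the control range, whereas the LPA-treated libraries all lay above it. The mean was 2.56 times the control mean in MYO5B-knockout mice and 2.49 times after LPA. The log2 differences of 1.33 and 1.33 did not pass (limma's adjusted p = 0.238 and 0.287), and without the 2 libraries they were 1.17 and 0.85. DESeq2 called the first of them, at 1.08 with an adjusted p of 0.0279. The file gives Myo5c a length of 6733 bases, against 6727 for its longest GENCODE M21 transcript.

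Myo5a (ENSMUSG00000034593, chromosome 9, 75071015 to 75223688, plus strand), the motor of melanosomes and neuronal cargo, was low in every library. Control mice 2, 4 and 5 had 0, 23 and 16 reads, equal to 0, 0.128 and 0.0781 FPKM, where a count of 0 allows up to 3 reads. MYO5B-knockout libraries had 26 to 36 reads, or 0.129 to 0.234 FPKM, and LPA-treated libraries 23 to 39 reads, or 0.114 to 0.231 FPKM. Each MYO5B-knockout library stood above each control library, narrowly so for control mouse 4. The log2 difference of 0.69 did not pass (limma's adjusted p = 0.484), and it was 0.23 without the gene-poor libraries.

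Taken as a share of the summed class V myosin FPKM, Myo5b made up 93.0% to 96.1% in control mice, 68.3% to 83.4% in MYO5B-knockout mice and 66.1% to 78.6% after LPA. The Myo5c share was 3.91%, 6.28% and 6.73% in control mice 2, 4 and 5. It was 14.7%, 31.0%, 28.5% and 20.0% in MYO5B-knockout mice 3, 5, 6 and 7, and 33.1%, 20.7% and 21.6% in LPA-treated mice 1, 4 and 5. A share within a library does not depend on how libraries are scaled to each other, and here every knockout library stood above every control library, also in the gene-poor pair. Myo5a never exceeded 1.86%. The summed FPKM of the class was 26.5 ± 8.62 (SD, n = 3) in control mice, 16.6 ± 2.69 (SD, n = 4) in MYO5B-knockout mice and 15.2 ± 2.16 (SD, n = 3) after LPA. These shares carry the Myo5b level in their denominator, and no test was made on them.

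**Figure D2:**
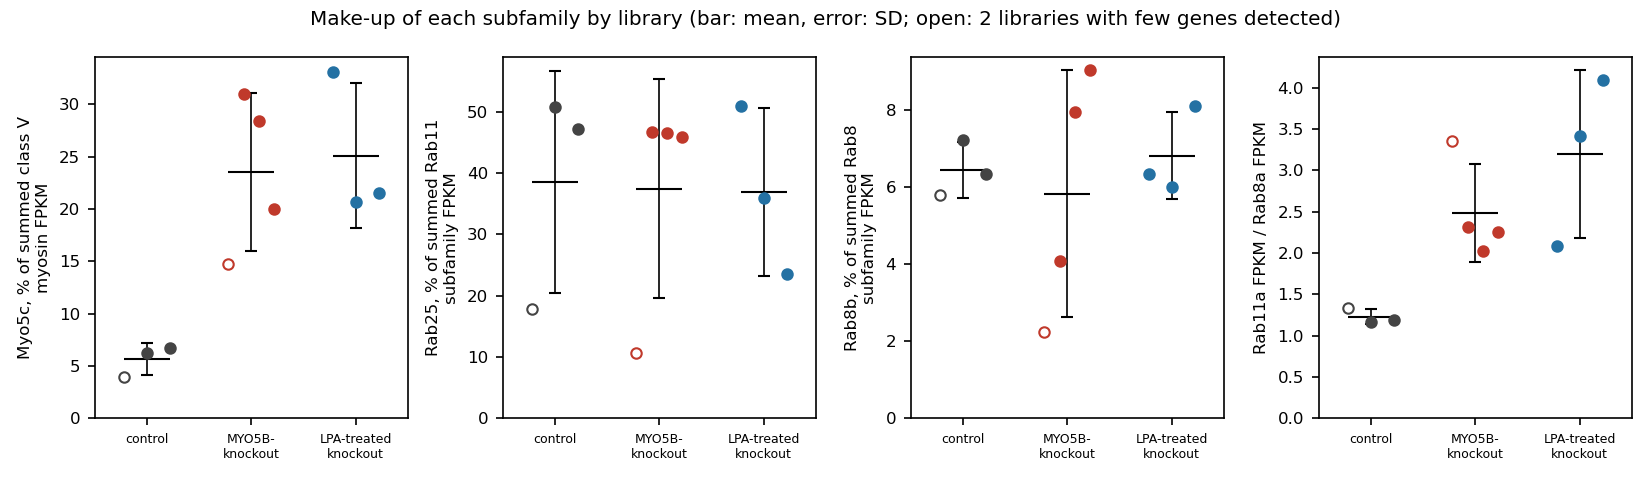
Shares within each subfamily, in percent of its summed FPKM, for Myo5c, Rab25 and Rab8b, and the ratio of Rab11a to Rab8a FPKM, in each library with group mean and SD. Open symbols are the gene-poor libraries. The Myo5c share is at most 6.73% in control libraries and at least 14.7% in knockout libraries, and the Rab11a to Rab8a ratio is at most 1.34 in control and at least 2.02 in knockout libraries, whereas the Rab25 share is lowest in the open symbols of both groups.

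Coding stretches of the 5 Rab GTPases are shown for switch II, the part of the fold that senses GTP, and for the tail that takes the lipid anchor. The first is shown because 1 codon sets Rab25 apart from the others, and the second because it tells Rab8 from Rab11. In the switch II codons below, read from GENCODE M21 coding sequences of GRCm38, the capitals mark the codon at the catalytic glutamine. It reads CAG in Rab11a, Rab11b, Rab8a and Rab8b and CTG in Rab25, whose protein is known for a leucine at this place.
Rab11a: tgggacacagcagggCAGgagcgg
Rab11b: tgggacactgctggcCAGgagcgc
Rab25: tgggacacggccggcCTGgagaga
Rab8a: tgggacacggccggcCAGgagcgg
Rab8b: tgggacacggcgggcCAGgaaaga
These windows span codons 65 to 72 in Rab11a and Rab11b, 66 to 73 in Rab25 and 62 to 69 in Rab8a and Rab8b. They lie in exon 2 of 5 in the Rab11 subfamily (chromosome 9, 64728254 to 64728277, chromosome 17, 33749802 to 33749825, and chromosome 3, 88545081 to 88545104, all on the minus strand) and across exons 2 and 3 of 8 in the Rab8 subfamily, with an intron between (Rab8a on chromosome 8, 72168486 to 72171261, plus strand, and Rab8b on chromosome 9, 66860876 to 66863424, minus strand).

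The last 5 codons and the stop codon of the same genes follow, with the cysteine codons that receive the prenyl anchor in capitals. The Rab11 subfamily ends with 2 of them and the Rab8 subfamily with 1.
Rab11a: TGCTGTcagaacatctaa
Rab11b: TGCTGCcagagcctgtga
Rab25: TGTTGCatcagcctctga
Rab8a: cggTGCagtctcctgtga
Rab8b: cgcTGTtctctgctttga
They lie in the last exon of each gene, for Rab11a on chromosome 9 from 64716849 to 64716866, for Rab11b on chromosome 17 from 33747668 to 33747685 and for Rab25 on chromosome 3 from 88542243 to 88542260. For Rab8a the stretch is on chromosome 8 from 72180120 to 72180137, and for Rab8b on chromosome 9 from 66847719 to 66847736. The translated coding sequences were 90.7% identical between Rab11a and Rab11b, 62.3% between Rab11a and Rab25, 83.6% between Rab8a and Rab8b and 42.5% between Rab11a and Rab8a. How reads that match more than 1 gene were counted is not given in the sources used here.

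Rab11a (ENSMUSG00000004771, chromosome 9, 64715299 to 64737758, minus strand), the GTPase of the apical recycling endosome, was the highest of the 10 genes on the mean of each group. The libraries of control mice 2, 4 and 5 held 89.3, 73.3 and 77.2 FPKM. MYO5B-knockout mice 3, 5, 6 and 7 held 155, 104, 91.0 and 116 FPKM, and LPA-treated mice 1, 4 and 5 held 105, 155 and 151 FPKM. All knockout libraries lay above all control libraries, though MYO5B-knockout mouse 6 exceeded control mouse 2 only narrowly. The mean was 1.45 times the control mean in MYO5B-knockout mice and 1.72 times after LPA. The log2 differences were 0.52 (95% confidence interval -0.07 to 1.11, limma's adjusted p = 0.349) and 0.76 (95% confidence interval 0.13 to 1.39, limma's adjusted p = 0.215). Without the gene-poor libraries they were 0.45 and 0.84 (limma's adjusted p = 0.237 and 0.0558). Scaled by the median of ratios they shrank to 0.23 and 0.39 (limma's adjusted p = 0.828 and 0.737). The second was 0.41 with edgeR (adjusted p = 0.710) and 0.36 with DESeq2 (adjusted p = 0.770). After quantile normalization it was 0.70 (limma's adjusted p = 0.203). Between LPA-treated and vehicle-treated mice the difference was 0.25 (95% confidence interval -0.35 to 0.84). Exons of Gm47308 on the same strand share 3.58% of the exon bases of Rab11a.

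Rab11b (ENSMUSG00000077450, chromosome 17, 33742484 to 33760530, minus strand), a close relative of Rab11a, did not separate the groups. Control mice 2, 4 and 5 held 17.4, 15.8 and 17.1 FPKM, MYO5B-knockout mice 3, 5, 6 and 7 held 20.3, 18.1, 13.8 and 15.1 FPKM, and LPA-treated mice 1, 4 and 5 held 18.2, 14.5 and 15.1 FPKM. The 3 groups overlapped throughout. The log2 difference was -0.0059 between MYO5B-knockout and control mice (95% confidence interval -0.56 to 0.54), and its sign turned when single libraries were left out. Gm17251 overlaps 5.37% of its exon bases on the opposite strand, with 414 reads against 17056 over the 10 libraries, and whether strand was used in counting is not given in the sources used here.

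Rab25 (ENSMUSG00000008601, chromosome 3, 88542029 to 88548300, minus strand), the epithelial member also called Rab11c, split the libraries in another way. The libraries of control mice 2, 4 and 5 held 23.0, 91.8 and 84.2 FPKM. Mice 3, 5, 6 and 7 of the MYO5B-knockout group held 20.9, 107, 91.4 and 111 FPKM, and LPA-treated mice 1, 4 and 5 held 128, 95.6 and 51.5 FPKM. The lowest values of both the control and the MYO5B-knockout group were those of the gene-poor libraries, and the groups overlapped. The log2 difference between MYO5B-knockout and control mice was 0.29 with a 95% confidence interval of -1.19 to 1.78. It was 0.22 (95% confidence interval -0.59 to 1.04) in the 8 other libraries, and -0.35 without control mouse 2 alone. The Rab25 share of the summed Rab11 subfamily was 17.8% and 10.6% in the gene-poor libraries and 45.9% to 50.7% in the other control and MYO5B-knockout libraries. LPA-treated mice 1, 4 and 5 held shares of 51.0%, 36.0% and 23.6%, where Rab11a made up 41.8%, 58.5% and 69.4%.

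Rab8a (ENSMUSG00000003037, chromosome 8, 72161200 to 72183904, plus strand), the GTPase that acts in apical delivery after Rab11, varied little among control mice. Control mice 2, 4 and 5 held 66.8, 62.7 and 65.2 FPKM. In the MYO5B-knockout group, mice 3, 5, 6 and 7 held 46.3, 44.7, 45.0 and 51.4 FPKM, and LPA-treated mice 1, 4 and 5 held 50.3, 45.5 and 37.0 FPKM. Each knockout library was clear of the control range, and of the gene-poor libraries control mouse 2 was the highest of its group and MYO5B-knockout mouse 3 lay within the range of its own. Control mice averaged 64.9 ± 2.04 FPKM (SD, n = 3). MYO5B-knockout mice averaged 46.9 ± 3.12 FPKM (SD, n = 4), and LPA-treated mice 44.3 ± 6.74 FPKM (SD, n = 3). The log2 differences of -0.47 (95% confidence interval -0.95 to 0.01) and -0.56 (95% confidence interval -1.08 to -0.05) did not pass, with limma's adjusted p-values of 0.294 and 0.265. Scaled by the median of ratios they were -0.76 and -0.93, and they stayed negative under every alternative. LPA-treated and vehicle-treated mice differed by -0.09 (95% confidence interval -0.57 to 0.39).

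Rab8b (ENSMUSG00000036943, chromosome 9, 66843672 to 66919705, minus strand), the minor form of the pair, came to 4.10, 4.88 and 4.41 FPKM for control mice 2, 4 and 5. MYO5B-knockout mice 3, 5, 6 and 7 held 1.06, 1.91, 3.88 and 5.10 FPKM, and LPA-treated mice 1, 4 and 5 held 3.40, 2.90 and 3.26 FPKM. The MYO5B-knockout libraries ran from below to above the control range, and the LPA-treated libraries all lay under it. The log2 differences from control were -0.79 and -0.47 (limma's adjusted p = 0.453 and 0.693). In the 8 other libraries they came to -0.45 with a limma adjusted p of 0.504 and to -0.53 with one of 0.425. The first was -0.39 without MYO5B-knockout mouse 3 and -1.12 without mouse 7. The leukocyte markers summed to 48.7, 15.4, 56.3 and 129 FPKM in MYO5B-knockout mice 3, 5, 6 and 7. They were highest like Rab8b in mouse 7 but lowest in mouse 5, whereas Rab8b was lowest in mouse 3. Gzma alone held 44.0, 7.20, 34.9 and 91.4 FPKM of these sums. In the same mice the enterocyte markers summed to 14397.8, 20040.6, 24742.5 and 26345.9 FPKM. The tuft cell markers summed to 1.56, 1.85, 3.06 and 3.88 FPKM there. Both of these lists rose in the same order as Rab8b. The part of any marker list in the Rab8b values was not tested. Rab8b took 5.79% to 7.21% of the summed Rab8 FPKM in control mice, 2.24% to 9.03% in MYO5B-knockout mice and 5.99% to 8.09% after LPA. Rab8a thus made up at least 91.0% of the subfamily in every library.

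The ratio of Rab11a to Rab8a FPKM, formed after their values were seen, was 1.34, 1.17 and 1.18 in control mice 2, 4 and 5. It was 3.35, 2.32, 2.02 and 2.25 in MYO5B-knockout mice 3, 5, 6 and 7, and 2.08, 3.41 and 4.09 in LPA-treated mice 1, 4 and 5. No knockout library lay in the control range, and vehicle and LPA libraries overlapped. Like a share, this ratio does not depend on the scaling between libraries. It is a description, since it was chosen for its difference.

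The 250 bases upstream of the Rab11a and Rab8a start sites are shown because these genes lay on opposite sides of control. They come from RefSeq promoters of GRCm38.p6, in which 8 of the 10 genes were found. Capitals mark GC boxes (GGGCGG) and CCAAT boxes (CCAAT), searched on both strands together with the TATA box (TATAAA).
Rab11a, chr9:64737757-64738006, minus strand: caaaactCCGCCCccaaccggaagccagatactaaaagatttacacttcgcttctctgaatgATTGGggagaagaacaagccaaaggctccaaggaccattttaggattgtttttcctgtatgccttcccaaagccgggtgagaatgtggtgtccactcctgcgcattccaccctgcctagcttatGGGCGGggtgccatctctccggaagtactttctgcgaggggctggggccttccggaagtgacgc
Rab8a, chr8:72160950-72161199, plus strand: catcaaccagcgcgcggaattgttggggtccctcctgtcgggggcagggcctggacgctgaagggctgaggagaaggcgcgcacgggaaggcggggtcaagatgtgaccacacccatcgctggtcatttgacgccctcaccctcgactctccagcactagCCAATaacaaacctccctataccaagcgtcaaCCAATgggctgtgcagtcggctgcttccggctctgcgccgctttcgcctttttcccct
Rab11a held 2 GC boxes and 1 CCAAT box, and Rab8a held 2 CCAAT boxes and no GC box, neither with a TATA box. Of 32851 promoters of the same length, 32.7% held a GC box, 33.8% a CCAAT box and 12.4% a TATA box, so none of these motifs is rare. CG pairs numbered 10 and 18, against a median of 6 over all promoters.

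Rab11fip1 (ENSMUSG00000031488, chromosome 8, 27138773 to 27174646, minus strand), also known as Rab coupling protein, binds Rab11 and Rab25 on recycling endosomes. The libraries of control mice 2, 4 and 5 held 13.3, 15.7 and 14.4 FPKM. Mice 3, 5, 6 and 7 of the MYO5B-knockout group held 16.5, 22.8, 23.0 and 17.8 FPKM, and LPA-treated mice 1, 4 and 5 held 24.6, 19.7 and 16.1 FPKM. All knockout libraries exceeded all control libraries, narrowly so for LPA-treated mouse 5. The log2 differences of 0.45 and 0.46 did not pass (limma's adjusted p = 0.404 and 0.444). Scaled by the median of ratios they were 0.16 and 0.085. A gene on the opposite strand, 4933416M07Rik, overlaps 4.19% of its exon bases, with 146 reads against 25822.

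Rab11fip2 (ENSMUSG00000040022, chromosome 19, 59902884 to 59943654, minus strand), the adaptor that binds MYO5B directly, was barely detected. Control mice 2, 4 and 5 had 0, 11 and 6 reads, equal to 0, 0.133 and 0.0639 FPKM. Reads numbered 0, 44, 26 and 27 for MYO5B-knockout mice 3, 5, 6 and 7, equal to 0, 0.476, 0.237 and 0.223 FPKM. They numbered 32, 20 and 18 for LPA-treated mice 1, 4 and 5, equal to 0.244, 0.216 and 0.252 FPKM. Both zeros belong to the gene-poor libraries, where 3 reads would still be allowed. The other libraries of the knockout groups all lay above control. Against control, the log2 difference was 0.85 in MYO5B-knockout mice with a limma adjusted p of 0.518, and 1.11 after LPA with one of 0.436. Over the 8 other libraries these became 1.02 with a limma adjusted p of 0.143 and 0.78 with one of 0.223.

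**Figure D3:**
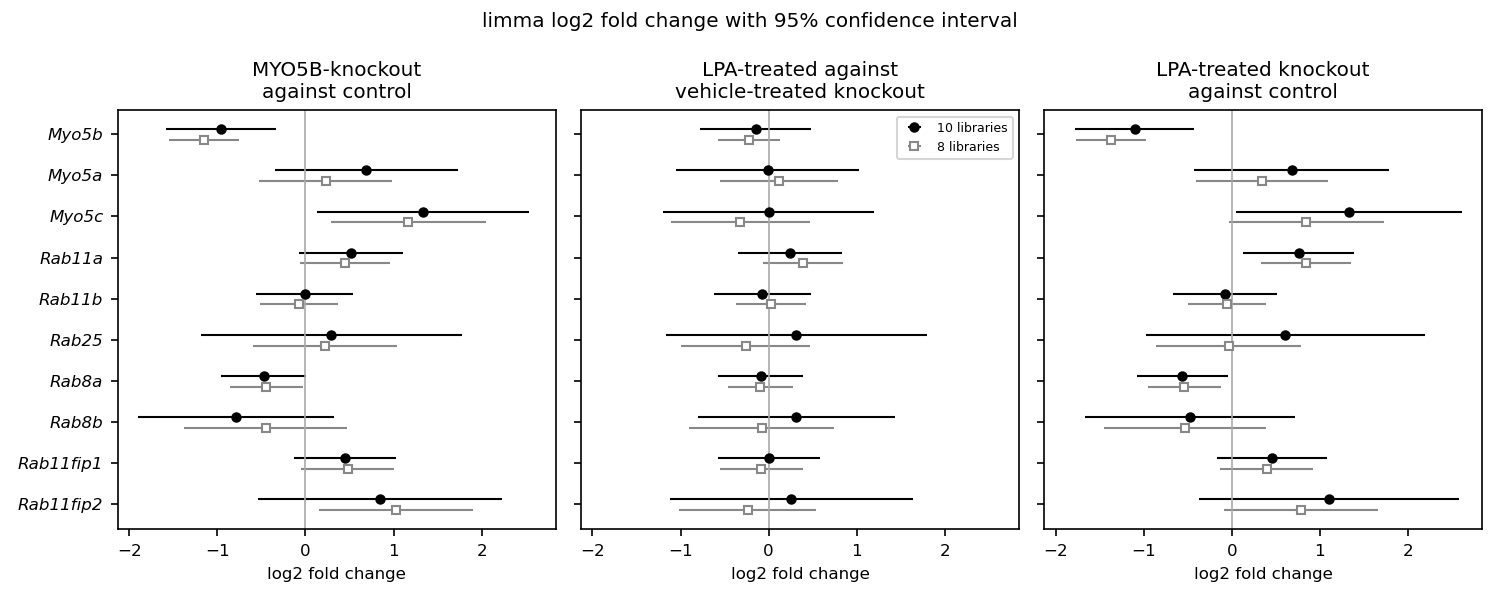
Log2 fold changes of the 10 genes on the log2(FPKM + 0.1) scale with limma's 95% confidence intervals (horizontal axis) in the 3 comparisons, from all 10 libraries (filled) and from the 8 left without the gene-poor libraries (open). In the comparison of LPA-treated with vehicle-treated mice every interval includes 0, and the differences from all 10 libraries run from -0.15 to 0.32.

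Ordered by mean FPKM, control mice showed Rab11a (79.9), Rab25 (66.3), Rab8a (64.9), Myo5b (24.9), Rab11b (16.8), Rab11fip1 (14.5), Rab8b (4.46), Myo5c (1.57), Myo5a (0.0686) and Rab11fip2 (0.0657). The libraries of neighbours overlapped for Rab11a and Rab25, Rab25 and Rab8a, Myo5b and Rab11b, and Myo5a and Rab11fip2, and stood apart for the others. In MYO5B-knockout mice Rab11fip1 (20.0) and Rab11b (16.9) both preceded Myo5b (12.4), whose 4 libraries lay below all of Rab11b. Myo5c (4.03) preceded Rab8b (2.99) there, with overlapping libraries. The same order held in LPA-treated mice.

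Over the 10 libraries, the genes whose log2(FPKM + 0.1) followed Myo5b most closely were Reg1, Slc5a4a and Slc5a4b, with Pearson's r of 0.974, 0.971 and 0.970 among 15728 genes. Reg1 encodes a secreted lectin and the other two encode members of the sodium-glucose cotransporter family. Of the genes described here, Rab8a came closest with an r of 0.816 (place 410) and Rab11a was the most opposed with -0.835 (place 15486). In the 8 libraries these were 0.892 and -0.827. The points share the difference between control and knockout mice and the libraries' depth, so these values describe the pattern only.

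The wider pathway was covered by 63 other genes in 7 lists, of which 61 entered the tests and Rab11fip5 and Ehd3 did not. Between MYO5B-knockout and control mice 1 of the 61 passed and it was higher, Dynll1, where 2.01% of all genes were called, so the count is near that share. The median of the 61 was 0.36, beside 0.29 over all genes. Of the 61, 41 had a value above 0 and 20 below, beside 63.4% of all genes above 0. Between LPA-treated and control mice 1 of 61 passed, again Dynll1, where 2.32% of all genes were called, with a median of 0.35 beside 0.41 over all genes. None passed between LPA-treated and vehicle-treated mice, where no unadjusted p was under 0.05 among the 61 and the median was 0.00059 beside 0.11.

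Dynll1, a light chain of dynein from a family that also binds MYO5A, came to 14.1, 21.8 and 25.5 FPKM for control mice 2, 4 and 5. In the MYO5B-knockout group, mice 3, 5, 6 and 7 held 38.4, 54.7, 52.8 and 69.7 FPKM, and LPA-treated mice 1, 4 and 5 held 53.5, 63.3 and 45.9 FPKM. The groups were well apart from control and overlapped with each other. The log2 differences from control were 1.40 (95% confidence interval 0.74 to 2.06, limma's adjusted p = 0.0441) and 1.43 (limma's adjusted p = 0.0479). These calls lie close to the threshold. With 1 mouse left out at a time, Dynll1 passed in 1 of 10 fits in each comparison, with log2 differences of 1.16 to 1.58 and 1.19 to 1.61. Without the gene-poor libraries it passed in both, at 1.31 and 1.19. In its list of light chains, chaperone and adaptors, 8 of 12 genes had a value above 0 in MYO5B-knockout mice, near the 63.4% of all genes, and none but Dynll1 was called. Rab27b, a GTPase of secretory vesicles, had the largest value of that list after LPA, 1.50, without passing (limma's adjusted p = 0.444). Spire2, an actin nucleator that binds class V myosins, had the largest between LPA-treated and vehicle-treated mice, at 0.99.

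None of the 4 Rab11 effectors tested passed in any comparison, and their median was -0.83 between MYO5B-knockout and control mice. They did not move together, since 3 had a value below 0 and 1, Wdr44, was above at 1.38. The means of Wdr44 and Rab11fip4 were 2.39 and 0.432 times control in MYO5B-knockout mice. Rab11fip3, an adaptor of the class that also binds ARF GTPases, had the largest difference. Control mice 2, 4 and 5 held 4.68, 20.4 and 23.5 FPKM, MYO5B-knockout mice 3, 5, 6 and 7 held 1.25, 5.27, 9.87 and 8.25 FPKM, and LPA-treated mice 1, 4 and 5 held 4.56, 4.26 and 1.13 FPKM. The lowest library of each of the first 2 groups was the gene-poor one, and the LPA-treated libraries lay below all control libraries. The log2 differences from control were -1.41 and -2.18 (limma's adjusted p = 0.402 and 0.245), and the second was -2.91 with limma's adjusted p = 0.0277 in the 8 libraries.

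Of the activators and inactivators of Rab11 and Rab8, none of 9 passed, with a median of 0.36 in MYO5B-knockout mice. Evi5, a protein that binds Rab11, had the largest difference at 1.66 (limma's adjusted p = 0.353), with 0.0929 FPKM in control mouse 2 and 2.33 and 2.25 FPKM in mice 4 and 5. Rab3il1, an exchange factor of Rab8, had the largest between LPA-treated and vehicle-treated mice, 0.999, from at most 16 reads in any library. None of the 9 exocyst subunits, which tether vesicles to the plasma membrane, passed either. Exoc6 had the largest difference, 1.79 (limma's adjusted p = 0.535), and its 0 reads in control mouse 2 stand against 8.24 and 7.03 FPKM in mice 4 and 5. Exoc4 had the largest of that list between LPA-treated and vehicle-treated mice, -0.57.

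In the recycling endosome list none of 11 passed. Rab4b, a GTPase of rapid recycling, had the largest difference between MYO5B-knockout and control mice, -1.42 (limma's adjusted p = 0.428), from at most 37 reads in a library. Rab13, a GTPase of tight junction traffic, had the largest between LPA-treated and vehicle-treated mice, 0.70. Ehd4, a membrane-shaping ATPase, had the largest between LPA-treated and control mice. The libraries of control mice 2, 4 and 5 held 4.39, 9.58 and 7.20 FPKM and LPA-treated mice 1, 4 and 5 held 20.5, 16.0 and 15.0 FPKM, a log2 difference of 1.33 that did not pass (limma's adjusted p = 0.122) and that did in the 8 libraries (1.02, limma's adjusted p = 0.0293).

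None of the 9 apical polarity genes passed. Pard6b, the PAR6 form that joins CDC42 to atypical protein kinase C, came to 4.37, 17.6 and 17.9 FPKM for control mice 2, 4 and 5. MYO5B-knockout mice 3, 5, 6 and 7 held 13.0, 35.6, 38.8 and 38.0 FPKM, and LPA-treated mice 1, 4 and 5 held 43.7, 42.9 and 27.7 FPKM. Apart from the gene-poor libraries, every knockout library was above every control library. Its log2 differences of 1.36 and 1.73 did not pass (limma's adjusted p = 0.234 and 0.171), whereas those of the 8 libraries, 1.07 and 1.07, did (limma's adjusted p = 0.0411 and 0.0301). Dnmbp, an exchange factor of CDC42, had the largest value of the list between LPA-treated and vehicle-treated mice, -0.55.

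Of the 7 genes for prenylation and extraction of Rab proteins none passed, with a median of 0.63 in MYO5B-knockout mice and 1.02 after LPA. Chml, a Rab escort protein, had the largest difference from control. It had 0.0348 FPKM in control mouse 4 with no reads in the other two, whereas MYO5B-knockout mice 3, 5, 6 and 7 held 1.76, 0.715, 2.12 and 0.166 FPKM. The LPA-treated libraries spread from 0.0310 to 1.75 FPKM and reached into the control range. Its log2 differences, 3.14 and 2.20, did not pass (limma's adjusted p = 0.119 and 0.314) and depend on the pseudocount.

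**Figure D4:**
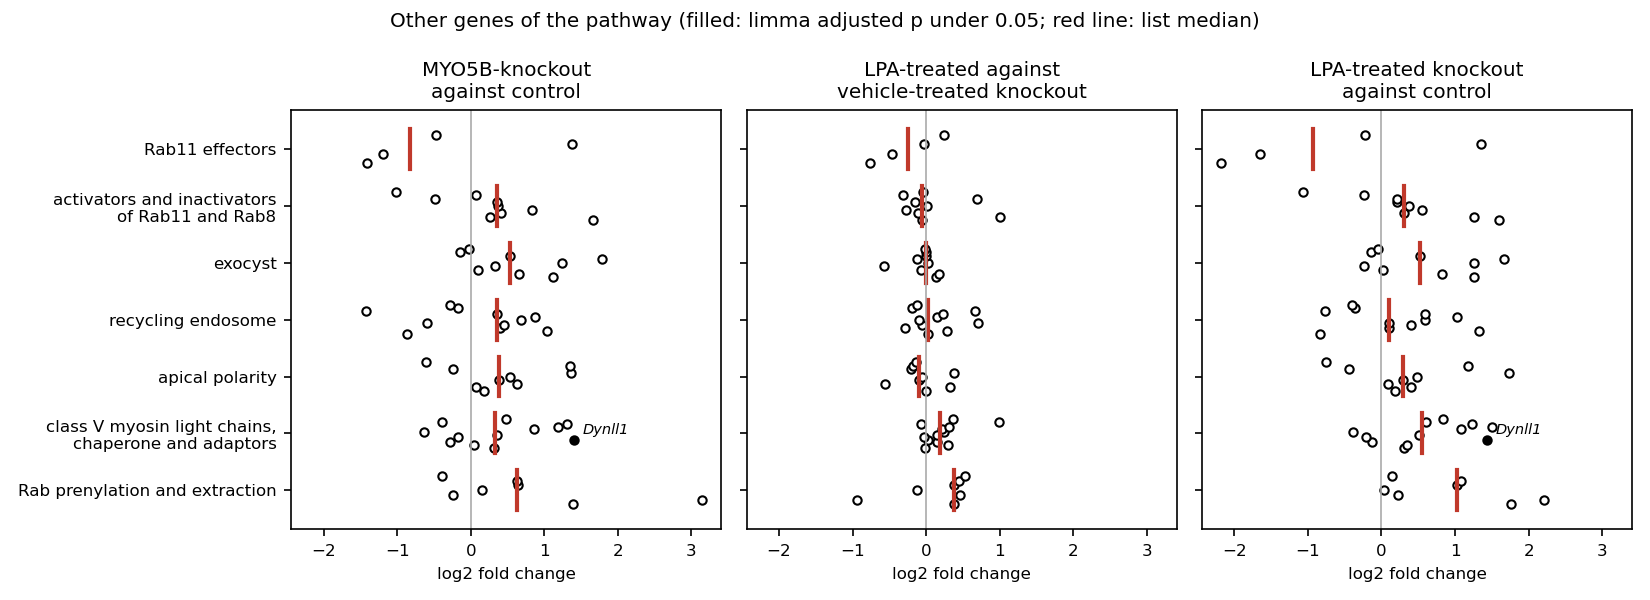
Log2 fold change on the log2(FPKM + 0.1) scale (horizontal axis) of the 61 other pathway genes tested, by list (vertical axis), in the 3 comparisons. Each symbol is a gene, filled at limma's adjusted p under 0.05, and the red line is the list's median. Dynll1 is the only filled symbol in both comparisons with control, and the comparison of LPA-treated with vehicle-treated mice has none.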

How the data were processed

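The authors deposited FPKM for the genes of each of the 10 libraries, with gene lengths. Per the labels, STAR 2.5, TopHat and HTSeq 0.6.1 were used with the GRCm38 (mm10) genome. No scaling between libraries is stated. Values times gene length were whole multiples of 1 step per library (tolerance 0.1 reads, 100% of values), which gave reads equal to 63 of the 63 deposited read counts compared. Those counts came from the MYO5B-knockout and LPA-treated libraries, and no control library was compared in this way. The authors' own comparisons and pathway enrichments were not used.

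Genes averaging 0.1 FPKM or more were compared in 1 limma 3.58.1 model (R 4.3.3) of the 3 groups on log2(FPKM + 0.1), trended variance, two-sided, Benjamini-Hochberg adjusted over 15729 genes and called under 0.05. Alternatives were other pseudocounts, filters and scalings, edgeR 4.0.16 (quasi-likelihood) and DESeq2 1.42.0 on recovered reads, fewer libraries and a replicate block. The tests were checked on simulated data with known changes, where limma missed most of the smaller changes and its share of false calls stood above the threshold. All simulated libraries shared the same mean profile and spread. They held neither gene-poor libraries nor a general shift, so the check does not cover these features. The 10 genes and all lists were chosen with earlier results of these data known. Named were the 10 genes, pathway genes called, the largest difference of each list and the 3 genes most like Myo5b. Mice are the replicates, and 1 library was made from each. Intervals on zero counts cover counting error only.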

Additional observations from a re-analysis of the deposited data

Results flagged for a closer look

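Among the 4 MYO5B-knockout libraries, 4 of 37 sets of values examined held 1 library far from the other 3, by Dixon's ratio (gap to the nearest value over the whole range) and its 95% critical value. Chance gives about 1 in 20 for independent sets. These sets share the same 4 libraries and some are shares of the same sum, so that rate does not apply to their count. Pard6b in mouse 3, at 13.0 FPKM against 35.6 to 38.8 FPKM, had a ratio of 0.876. The Myo5a share of the class V myosins, 1.86% in mouse 3 against 0.722% to 0.810%, had a ratio of 0.922. In the Rab11 subfamily, the Rab11a share of 79.0% in mouse 3 against 45.4% to 47.8% had a ratio of 0.928, and the Rab25 share of 10.6% against 45.9% to 46.7% had a ratio of 0.979. All 4 single out the gene-poor MYO5B-knockout library, which also goes against the male label, and these traits cannot be told apart in it. The other groups hold 3 libraries and were not examined.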

How the results depend on the processing

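Between MYO5B-knockout and control mice, 8 of the 10 genes kept their direction in all of the 21 alternatives run on them, and between LPA-treated and control mice 9 of 10 did in 22. Myo5a and Rab11fip2, which count among both, gave no value with the filter at a mean of 1 FPKM. Of the 10 genes, 1 (Myo5b) was called in both comparisons after median of ratios scaling, after quantile normalization, with edgeR and without the gene-poor libraries. These fits called 3.8%, 5.11%, 2.82% and 4.95% of all genes in the first comparison and 3.12%, 3.98%, 2.4% and 8.56% in the second. DESeq2 called 2 (Myo5b and Myo5c) in the first and 1 (Myo5b) in the second, beside 11.6% and 9.47% of all genes. The log2 fold change of Myo5b in the first comparison was then -1.25, -1.17, -1.22, -1.15 and -1.24. With 1 mouse left out at a time it ran from -1.22 (without control mouse 2) to -0.75 (without control mouse 4), and the count called from 0 to 1 in both comparisons with control. With 1 mouse left out, Rab11b and Rab25 ran from -0.10 to 0.084 and from -0.35 to 0.87 in MYO5B-knockout mice, and Rab25 from -0.036 to 0.97 in LPA-treated mice, where it was -0.036 without the gene-poor libraries. The causes were not tested.

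Between LPA-treated and vehicle-treated mice, where none of the 10 was called in any alternative, only Myo5b and Rab11a kept their direction in all of them. Without the gene-poor libraries, Myo5a was 0.12, Rab11b 0.025, Rab25 -0.26, Rab8b -0.079, Rab11fip1 -0.083 and Rab11fip2 -0.24. Without the libraries that go against the male label, Myo5a was 0.17, Rab25 -0.55, Rab8b -0.13, Rab11fip1 -0.24 and Rab11fip2 -0.25. Rab11fip1 was -0.077, -0.064, -0.061 and -0.080 with median of ratios scaling, quantile normalization, edgeR and DESeq2, Rab11fip2 -0.10 with quantile normalization, and Myo5c 0.0019 with a pseudocount of 0.01. With 1 mouse left out, Myo5a ran from -0.20 to 0.12, Myo5c from -0.32 to 0.19, Rab11b from -0.17 to 0.025, Rab25 from -0.26 to 0.68, Rab8a from -0.19 to 0.033, Rab8b from -0.079 to 0.64, Rab11fip1 from -0.15 to 0.15 and Rab11fip2 from -0.24 to 0.60.

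Mouse numbers 4 and 5 recur among control and LPA-treated mice, and number 5 also among MYO5B-knockout mice. Deviations from the group means correlated at 0.10 and -0.36 for numbers 4 and 5 of control and LPA-treated mice. Those of MYO5B-knockout mouse 5 correlated at 0.30 with control mouse 5 and -0.21 with LPA-treated mouse 5. No label ties equal numbers together, so the mice were not treated as pairs. Deviations from the means of so few libraries cannot exclude a pairing. With the number as a replicate block, which leaves 1 residual degree of freedom, 0 of the 10 genes and 0 of all genes were called, Myo5b was -1.40 and Rab25 -0.32. Over all genes, the count called ran from 44 to 1830 for MYO5B-knockout and from 0 to 1489 for LPA-treated against control mice, beside 316 and 365. After median of ratios scaling, 222 genes were higher and 376 lower in MYO5B-knockout mice, against 177 and 139, and 221 higher and 269 lower in LPA-treated mice, against 243 and 122. Of the other pathway genes, DESeq2 called 10 and 9 of 61 in these comparisons, where it called 11.6% and 9.47% of all genes, and the replicate block 0. Myo5a and Rab11fip2 rest on at most 39 and 44 reads in a library, and a count of 0 allows up to 3.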
